A study of Mus musculus with 144 samples.

Results

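A set of 920 polyadenylation sites was described here, whose counts were concentrated in nuclear RNA of mouse liver. A site entered the set when its mean over the 36 nuclear libraries was at least 1 CPM (the site's counts divided by the total of its library in the site table, times 1000000) and at least 4 times the mean over the 36 wild-type total RNA libraries plus 0.1 CPM. The 920 sites were 3.15% of the 29199 sites in the authors' filtered list and 4.52% of the 20340 listed sites with at least 1 CPM in nuclear RNA. The rule thus used the nuclear and wild-type total levels averaged over the day, and the difference between those levels is given below as a description, with no test.

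Livers came from male C57BL/6J mice fed ad libitum under a 12 h light and 12 h dark cycle. There were 4 series of 36 libraries. Wild-type liver gave total RNA, nuclear RNA (from nuclei spun through a sucrose cushion) and polysomal RNA (polysome fractions of a sucrose gradient run with cycloheximide), and liver of Bmal1-/- mice, which carry a deletion of the gene for the core clock activator BMAL1, gave total RNA. Sampling was every 4 h from ZT2 to ZT22, where ZT is the zeitgeber time counted in hours from lights on, with 6 libraries per series and time made with the QuantSeq 3′ kit. The labels give neither the ages of the mice nor whether fractions of one replicate number came from one animal, so p-values measure the spread between these libraries. The text of the labels does not say what the Bmal1 deletion removes or in which cells.

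Most RNA polymerase II transcripts are cut and given a poly(A) tail about a defined place, usually downstream of the hexamer AATAAA or ATTAAA. A gene can carry several such places, and a site inside an intron or early exon yields a shortened RNA. Transcripts can also be held in the nucleus, as long noncoding RNAs such as Neat1 and Malat1 and mRNAs with retained introns are, and precursors of small RNAs are trimmed there. QuantSeq starts from an oligo(dT) primer, which binds poly(A) tails and can also bind A-rich stretches inside an RNA, so a listed site is a place where such priming was seen and not by itself a cleaved end.

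Sequence was at hand for the few sites that lie in RefSeq promoter windows (GRCm38.p6), and 6 sites of the set are shown, 5′ to 3′ on the strand of the site, because they show which bases stand where the oligo(dT) primer was extended. The first 5 lines give the 10 bases before and the 20 bases after the 3′ boundary of the site. Capitals mark a run of at least 6 A or, failing that, the first 10 bases with at least 7 A. The last line ends before the boundary and has the hexamer in capitals, which began 26 bases before the boundary.
Cnot3, chr7:3645428-3645488, plus strand: aagaggAAAAAAAAAAAAAAAAAAggcggc
Ino80e, chr7:126861749-126861758, minus strand: gACTACAAAAAgaaatacaggaatctgaag
Ino80e, chr7:126861763-126861775, minus strand: cggacggcgaagtggACTACAAAAAgaaat
No listed gene, chr3:94399184-94399210, plus strand: cattctggttTAAAAAGAGAgaagaggagg
Rsrc1, chr3:66985779-66985803, plus strand: aaggtcgagccaggtgatgccggcgtccag
Lamb2, chr9:108490511-108490535, plus strand: gcaagagctttcAATAAAcctgtgtgaacc

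The Cnot3 site sat on a run of 18 A, 1.52% of the way into the gene of a subunit of the CCR4-NOT deadenylase, and had 118 CPM on average in nuclear RNA and 10.96 CPM in total RNA. Of the 6 sites of the set with this stretch in a window, 4 held a run of at least 6 A or 10 bases with at least 7 A, against 12 of 85 other sites with at least 1 CPM in nuclear RNA and 7.07% of a fixed 30-base stretch in 32851 promoter windows. Both Ino80e sites hold the same A-rich bases, so the 4 are not independent. AATAAA or ATTAAA stood in the 50 bases before the boundary (site's strand) of 1 of 7 sites of the set, against 40 of 75 other sites and 3.34% of fixed 50-base stretches. These windows surround gene starts and cover 8 of the 920 sites, so they say little of the rest, and the part that priming at A-rich stretches has in the set was not tested.

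In each nuclear library the set took a larger share of the site counts than in any library of the other series. The share ran from 1.76% to 6.40% in nuclear RNA with a median of 3.72%. Total RNA of wild-type mice had 0.2998% to 0.628% (median 0.5005%). It ran from 0.276% to 0.863% in polysomal RNA (median 0.450%) and from 0.383% to 0.941% in Bmal1-/- total RNA (median 0.580%). Nuclear RNA was the only series with a library above 1%, and polysomal, total and Bmal1-/- libraries overlapped one another. By time, the nuclear medians lay between 2.95% at ZT2 and 4.29% at ZT6, a difference smaller than the range among the 6 libraries at ZT2 (2.14% to 6.40%).

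**Figure D1:**
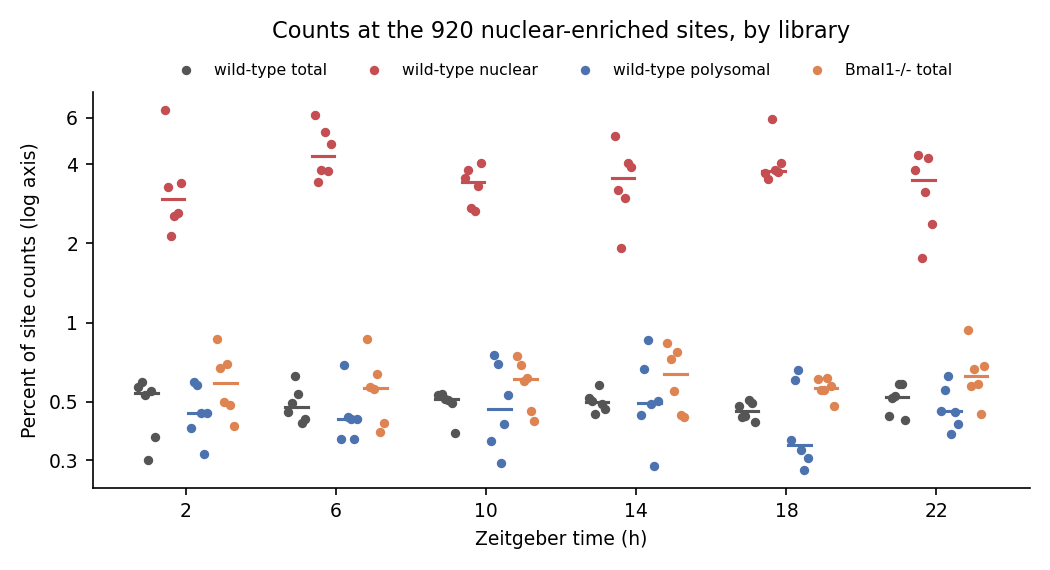
Percent of each library's site counts that fell on the 920 sites (vertical axis, log scale) by zeitgeber time in hours, with 1 point per library and a bar at the median of 6 libraries. The nuclear libraries lie between 1.76% and 6.40%, above all libraries of the other 3 series, which stay under 1%.

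The median site of the set had a mean of 12.8 CPM in nuclear RNA, 1.71 in wild-type total RNA, 0.697 in polysomal RNA and 1.86 in Bmal1-/- total RNA. The ratio that chose the sites had a median of 6.04 and reached 42.0. Just inside the limit stood sites of Cxcl16 (ratio 4.01), Snhg20 (4.01) and Tmub2 (4.01), and just outside it sites of Ssh1 (3.98), Cep44 (3.98) and Rbm25 (3.99). The lowest nuclear library lay above the highest wild-type total library at 175 sites (19.0%, where 0.849% of all listed sites had this and the rule used the same contrast), and 103 sites had a nuclear library at 0. Sites chosen by the same rule in replicates 1 to 3 alone numbered 860, and 859 of them had a ratio above 1 in replicates 4 to 6, where their median ratio was 6.90.

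Library totals in the site table ran from 1404964 to 5720115 counts in nuclear RNA, 4079501 to 7771094 in wild-type total RNA, 1742356 to 10477400 in polysomal RNA and 3175685 to 12217394 in Bmal1-/- RNA. Summed hepatocyte markers (5 of 5 found) had a median of 66832 CPM in wild-type total, 38516 in nuclear, 33548 in polysomal and 52009 in Bmal1-/- RNA, with at least 13340 CPM in every library. Summed stellate cell markers (4 of 4 found) had 71.9 to 218 CPM in nuclear and 172 to 346 CPM in wild-type total RNA, and summed blood markers (4 of 4) 126 to 1882 and 285 to 5721 CPM. In polysomal RNA the blood sum was 853 to 9912 CPM (median 3859, against 1215 in wild-type total RNA). Kupffer, endothelial and cholangiocyte sums also overlapped between nuclear and total RNA. Cholangiocyte markers (4 of 4) had 33.3 to 117 CPM in Bmal1-/- and 9.90 to 53.0 CPM in wild-type total libraries. The part of these differences in the results was not tested, and fewer cells of a type cannot be told apart from less RNA per cell. Reads of Arntl, the gene that encodes BMAL1, were still present in Bmal1-/- libraries (5.17 to 18.6 CPM for the gene, and 0.251 to 19.3 CPM in wild type), and a 3′ tag outside the deleted stretch does not check the deletion.

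Small RNA genes stood at the top of the set. A small nucleolar RNA (snoRNA), small nuclear RNA or other small RNA gene lay within 100 bp of 27 of the 920 sites (2.93%). This was so at 26 of 19420 other sites with at least 1 CPM in nuclear RNA (0.134%). The strand of the small RNA gene was not compared with that of the site. Distances to the end of a small RNA gene assume that both lie on the same strand. Of the 27 sites, 21 were at snoRNA genes, 4 were among the 10 sites of the set with the most nuclear CPM and 13 among the 50. The 3′ boundary lay at or before the end of the small RNA gene at 19 sites and within 15 bp of its end at 14. The 19 include the Malat1 site described below, which lay upstream of its small RNA gene and not inside it. snoRNAs guide chemical changes of ribosomal RNA or its cutting in the nucleolus, and most mouse snoRNAs are trimmed out of introns of a host gene.

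The site with the most nuclear counts was chr1:39548775-39548806 (minus strand), in Snord89, a box C/D snoRNA. Its 36 nuclear libraries had 309 to 11601 CPM with a median of 1548. Wild-type total RNA had 81.4 to 386 CPM (median 164), Bmal1-/- RNA 109 to 718 CPM (median 242) and polysomal RNA 0.805 to 41.9 CPM (median 6.33). Nuclear libraries spread over a wide range and overlapped the highest total RNA libraries, while polysomal libraries lay below all of wild-type total RNA.

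The next was chr15:71794256-71794285 (plus strand) in the snoRNA gene LOC115486001, with 187 to 8913 CPM in nuclear RNA (median 1449) and 42.5 to 163 CPM in wild-type total RNA (median 77.6). No nuclear library was as low as the highest wild-type total library there. Snord13, a snoRNA with a gene of its own that acts on 18S ribosomal RNA, had 333 to 3755 nuclear CPM (median 1184) at chr8:31149848-31149925 and 54.7 to 515 CPM in total RNA. At Snord118 (the U8 snoRNA, needed for 5.8S and 28S ribosomal RNA), 10 bp past its end and downstream of Tmem107, the means were 347 nuclear, 64.1 total and 8.24 polysomal CPM.

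Several host genes of snoRNAs carried more than 1 site of the set. Eif4a2, which encodes a translation initiation helicase, held 4, at chr16:23110817-23110847 and chr16:23110921-23110938 in and beside Snora81 and at chr16:23111699-23111711 and chr16:23111738-23111749 in the snoRNA LOC115488691. The first of them had 152 to 2693 nuclear CPM (median 732), 17.0 to 90.5 CPM in total RNA (median 50.5) and 0 to 19.8 CPM in polysomal RNA (median 3.92). The 4 sites made up 95.3% of the counts of Eif4a2 in nuclear RNA, 36.8% in wild-type total RNA and 4.14% in polysomal RNA. Ribosomal protein genes Rpl27a, Rpl6 (2 sites) and Rpl4, the noncoding hosts Snhg1 (2 sites) and Snhg6, and Odc1, Srcap and Ppan had sites of the same kind.

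The largest ratio among the 27 was 35.7, at chr14:64753982-64754000 in the snoRNA Gm26225 within Kif13b, with 18.7 to 593 CPM in nuclear RNA and 0.490 to 8.53 CPM in total RNA. A site at chr19:5796002-5796031 ended 78 bases before the end of mascRNA, the tRNA-like RNA of 58 bases cut from the 3′ end of the Malat1 transcript, and so lay upstream of it. It had nuclear and total means of 106 and 3.86 CPM. One site ended within a microRNA: chr11:117077363-117077386 in Snhg20, where the boundary fell on base 17 of the 22 bases of mmu-miR-6516-5p. Its sequence is printed here from RefSeq with the seed (bases 2 to 8) in capitals, since the site lies in the arm itself.
mmu-miR-6516-5p: uUUGCAGUaacagguguggaca
Nuclear RNA had 5.32 to 71.3 CPM at that site and total RNA 0 to 6.81 CPM. Polysomal RNA was above total RNA at 1 of the 15 highest small RNA sites, Rn7s2, a 7SL RNA of the signal recognition particle, which works in the cytoplasm (means of 246 nuclear, 21.8 total and 87.3 polysomal CPM). The other 14 had polysomal means below their total means.

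**Figure D2:**
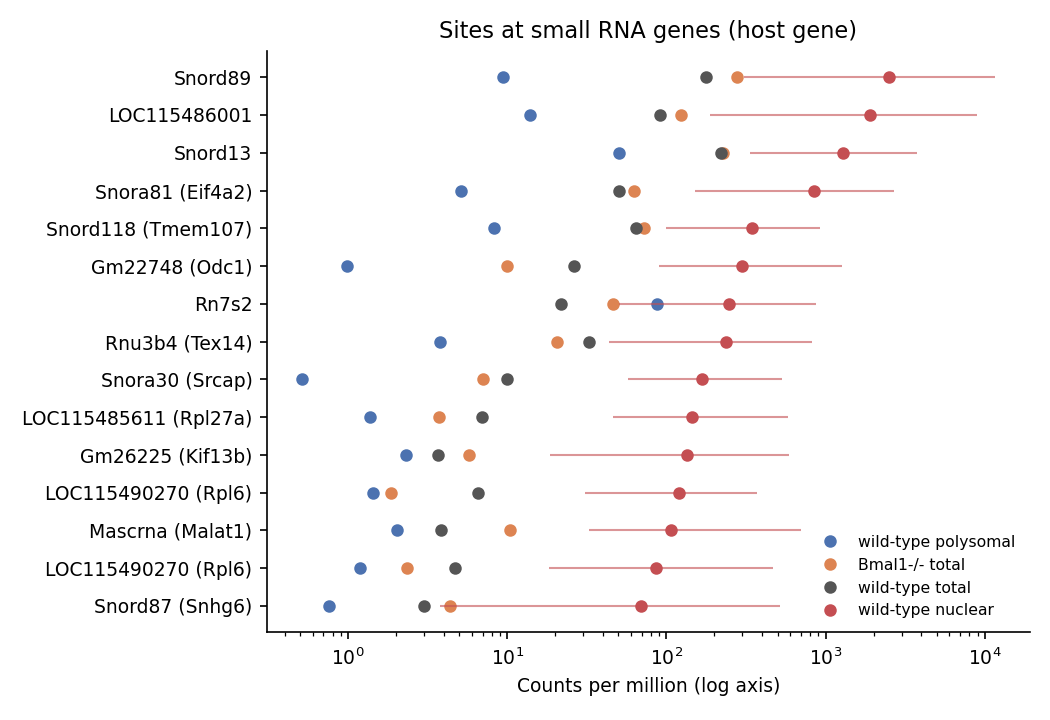
Mean CPM (log axis) in the 4 series at the 15 small RNA sites with the most nuclear counts, with the small RNA gene and, in brackets, the gene that the site was placed in. Red lines span the 36 nuclear libraries; the nuclear mean is the rightmost point in each row, and the polysomal mean is the leftmost in all but Rn7s2.

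Most sites of the set, those at small RNA genes included, lay inside genes. Of the 920 sites, 735 (79.9%) were inside a gene on its strand and more than 100 bp from its end, against 53.9% of the 19420 other sites with at least 1 CPM in nuclear RNA. Within 100 bp of a gene end lay 90 sites of the set (9.78%) against 37.9% of other sites. The remaining sites were in genes whose strand could not be set (76), in no listed gene (12), up to 1000 bp past a gene end (5) or antisense to a gene (2). Protein-coding genes took 92.3% and long noncoding RNA genes 5.11% of the set, against 94.9% and 1.40% of other sites. The gene table gives the bounds of genes only, so exon, intron and UTR were not assigned.

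Among sites inside genes, the median position was 55.4% of the way along the gene in the set and 92.2% among other sites. The first 10% of the gene held 14.6% of the set's inside sites against 3.46%, and the first 50% held 45.99% against 16.1%. In the last 10% lay 17.4% of the set's inside sites against 55.6%. The median distance before the end of the gene was 14766 bp in the set and 1766 bp for other sites, and the genes themselves were longer (medians of 44805 and 25793 bp). For example, a site of Foxp1, which encodes a forkhead transcription factor, lay 14.7% into a gene of 597405 bp.

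**Figure D3:**
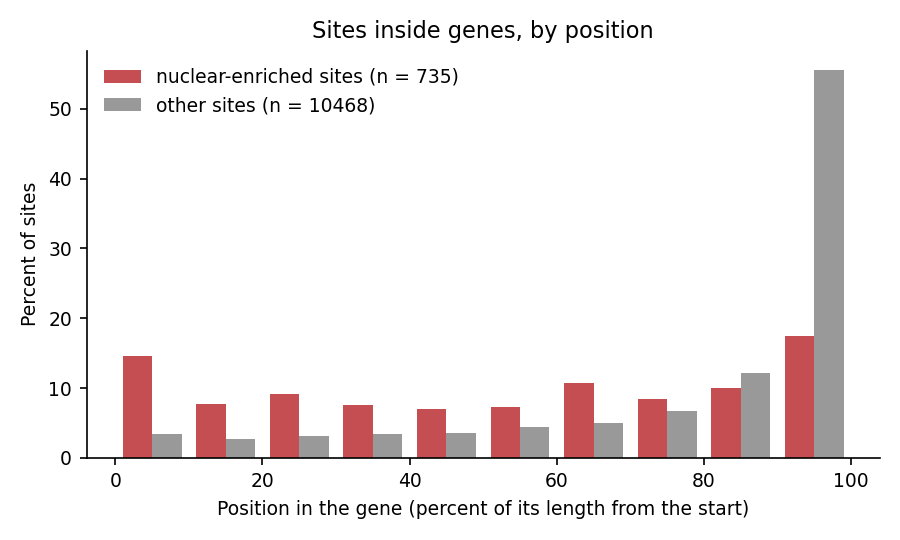
Percent of sites inside genes (vertical axis) in steps of 10% of the gene from start to end (horizontal axis), for 735 sites of the nuclear-enriched set (red) and 10468 other sites with at least 1 CPM in nuclear RNA (grey). Red bars are spread over the gene, with 14.6% in the first step and 17.4% in the last, while most grey sites fall in the last step.

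But for the 12 in no listed gene and the 2 antisense to one, the sites fell in 745 genes. Genes whose strand could not be set are included. Of the 745 genes, 628 had 1 site, 86 had 2 and 31 had at least 3. In 642 host genes with further sites, these other sites, which had not met the rule, had when summed a median log2 ratio of nuclear to total RNA of 0.17, and 43.3% of these genes were lower in nuclear RNA by their other sites. The median over all genes with sites was -0.30, and that of the set 2.61. These ratios, and the nuclear and total shares that follow, come from the values that chose the sites. A site of the set made up a median of 46.1% of the counts of its gene in nuclear RNA, 15.1% in wild-type total RNA, 15.9% in Bmal1-/- RNA and 6.72% in polysomal RNA (803 sites in genes with at least 2 sites). It held at least 50% of its gene at 366 sites in nuclear, 66 in total and 92 in polysomal RNA.

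Alas1, the rate-limiting enzyme of haem synthesis, held 5 of its 8 sites in the set, and these took 85.3% of its counts in nuclear RNA, 24.7% in wild-type total RNA and 8.39% in polysomal RNA. Ncoa2, a nuclear receptor coactivator, had 5 of 9 sites in the set (92.7%, 54.2% and 9.46%), Akap13 4 of 12 and Aopep 4 of 9. In these 4 genes the shares fell in the same order from nuclear to total to polysomal RNA. Gpld1, which encodes a phospholipase secreted by hepatocytes, went another way, with 18.6% in nuclear, 6.40% in total and 19.7% in polysomal RNA at its 4 sites.

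Of the nuclear long noncoding RNAs listed for this work (12 genes, 7 with sites), 13 of 39 sites with at least 1 CPM in nuclear RNA were in the set (33.3%). Over all listed sites with at least 1 CPM there, the share was 4.52%. The 13 sites lay in Neat1, Malat1, Kcnq1ot1 and Snhg1. Neat1 scaffolds paraspeckles, and the gene ends at the site chr19:5824708-5824724. That site had the largest ratio of the set, with 12.7 to 611 CPM in nuclear RNA (median 103) and 0 to 13.9 CPM in wild-type total RNA (median 2.15). The Bmal1-/- libraries had 0 to 3.27 CPM (median 0.483). Nuclear libraries overlapped the highest wild-type total libraries only at their low end and lay above all Bmal1-/- libraries.

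The most abundant Neat1 site, chr19:5834167-5834178, lay 54.5% into the gene with 63.5 to 2146 CPM in nuclear RNA (median 405) and 14.7 to 88.9 CPM in total RNA (median 37.5). Together the 5 Neat1 sites took 73.4% of the gene's site counts in nuclear RNA and 37.5% in total RNA. Malat1, of the nuclear speckles, had 4 of 8 sites in the set, which made up 29.9% of its counts in nuclear and 1.06% in total RNA. Most of its counts lay at sites outside the set: Malat1 as a gene had a median of 1482 CPM in nuclear and 1750 CPM in total RNA, whereas Neat1 had 1411 and 157 CPM.

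Of the genes of splicing factors and detained introns (29 genes), 11 of 119 sites were in the set (9.24%), in Srsf5 (3 sites), Ccnl2 (2), Clk1, Luc7l, Luc7l2, Nktr, Srsf4 and Tra2a. Srsf5 encodes a serine- and arginine-rich splicing factor, and its site at chr12:80946661-80946860, 27.2% into the gene, had 52.9 to 443 nuclear CPM (median 214) and 2.21 to 26.7 CPM in total RNA (median 15.1), with no overlap between them. Of mRNAs known to be held in hepatocyte nuclei, 4 of 18 sites were in the set (22.2%). They lay in Mlxipl (2 sites), which encodes the carbohydrate-response factor ChREBP, Nlrp6 and Chka. Liver secretory and metabolic genes gave 4 of 92 sites, all inside the gene, in Alb, Apoa1, Apob and Fga. This share (4.35%) was near the 4.52% of all listed sites with at least 1 CPM in nuclear RNA. The Alb site was 0.167% of Alb counts in nuclear RNA and 0.0111% in total RNA. These lists were drawn up with earlier results of these data known, and their counts are descriptions.

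A few gene ends were in the set as well. Agt, which encodes angiotensinogen, had 426 to 2787 CPM (median 1284) in nuclear and 180 to 669 CPM (median 275) in wild-type total RNA at its only listed site. Tapbp, a chaperone of antigen loading, had 245 to 844 CPM in nuclear and 66.7 to 145 CPM in total RNA at the end that held 99.9% of its nuclear counts. Plec, which encodes the cytolinker plectin, had means of 120 and 23.9 CPM at its end. For these genes the nuclear difference was one of the whole gene and not of 1 site among several.

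Time of day changed a minority of the set. A 24 h rhythm (edgeR quasi-likelihood test of a cosine and a sine term, Benjamini-Hochberg adjusted p under 0.05 over all sites) was called in nuclear RNA at 38 of 920 sites (4.13%, where 2.05% of all 21217 sites tested were called). The set had more nuclear counts per site, with a median of 12.8 CPM against 4.71 at other sites with at least 1 CPM. Among sites that averaged at least 10 counts, 44 of 875 in the set and 472 of 13402 of all sites were called. The part of count depth in the difference was not tested. The 38 sites lay in 30 genes and 2 places without a gene. Peak-to-trough ratios ran from 2.25 to 23.6 with a median of 4.26. Peaks were spread round the clock, with 11 between ZT20 and ZT24, 9 between ZT8 and ZT12, 7 between ZT12 and ZT16 and 11 in the other 3 windows of 4 h.

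Arntl, whose product pairs with CLOCK to drive the clock, had 2 rhythmic sites 48.0% and 48.1% into the gene. At chr7:113243662-113243709, nuclear libraries had 14.4 to 46.6 CPM at ZT22 (median 29.0) and 0 to 2.10 CPM at ZT10 (median 0.550), with no overlap between these times. The fitted peak was at ZT21.1 with a peak-to-trough ratio of 15.97 (edgeR, adjusted p = 1.81e-05). The neighbouring site, chr7:113243577-113243616, peaked at ZT20.8 with a ratio of 23.3 (edgeR, adjusted p = 8.14e-07). The 2 sites lie side by side and may report the same RNA.

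Per3, a repressor paralogue of the clock, had its site of the set 69.5% into the gene at chr4:151011539-151011571. Nuclear libraries had 9.96 to 85.2 CPM at ZT10 (median 37.9) and 0.401 to 6.68 CPM at ZT2 (median 0.880), again without overlap. The peak was at ZT10.7 with a ratio of 17.5 (edgeR, adjusted p = 3.32e-05). The site made up 74.7% of Per3 counts in nuclear and 22.1% in total RNA, and 3 counts were seen there over all 36 polysomal libraries.

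Usp2, a deubiquitinase with strong daily cycling in liver, had its site at chr9:44095298-44095314, with 78.7 to 146 nuclear CPM at ZT10 and 1.60 to 3.25 CPM at ZT2. It peaked at ZT13.1 (ratio 23.6, edgeR adjusted p = 4.11e-05). All 5 Alas1 sites were rhythmic in nuclear RNA with peaks from ZT11.7 to ZT12.2. The most abundant of them, chr9:106241447-106241572, ran from a median of 31.3 CPM at ZT2 to 763 CPM at ZT10, with 132 to 1888 CPM among the 6 libraries at ZT10 (ratio 22.4, edgeR adjusted p = 0.000227). The spread at ZT10 was wide, yet its lowest library stood above the highest at ZT2 (114 CPM).

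Chka, a choline kinase of phosphatidylcholine synthesis, had a site 33.4% into the gene that peaked at ZT21.3 (ratio 8.45, edgeR adjusted p = 7.56e-05), with 53.9 to 168 nuclear CPM at ZT22 and 5.38 to 18.7 CPM at ZT10. Ppard, a lipid-sensing nuclear receptor, peaked at ZT21.1 with a ratio of 5.82. Bhmt, which remethylates homocysteine, peaked at ZT17.7 (ratio 4.59), and Clmn, which encodes calmin, at ZT8.47 (ratio 2.51). Of the small RNA sites, Snord13 (ZT3.55, ratio 2.28) and a snoRNA of Snhg1 (ZT19.3, ratio 4.26) were rhythmic.

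**Figure D4:**
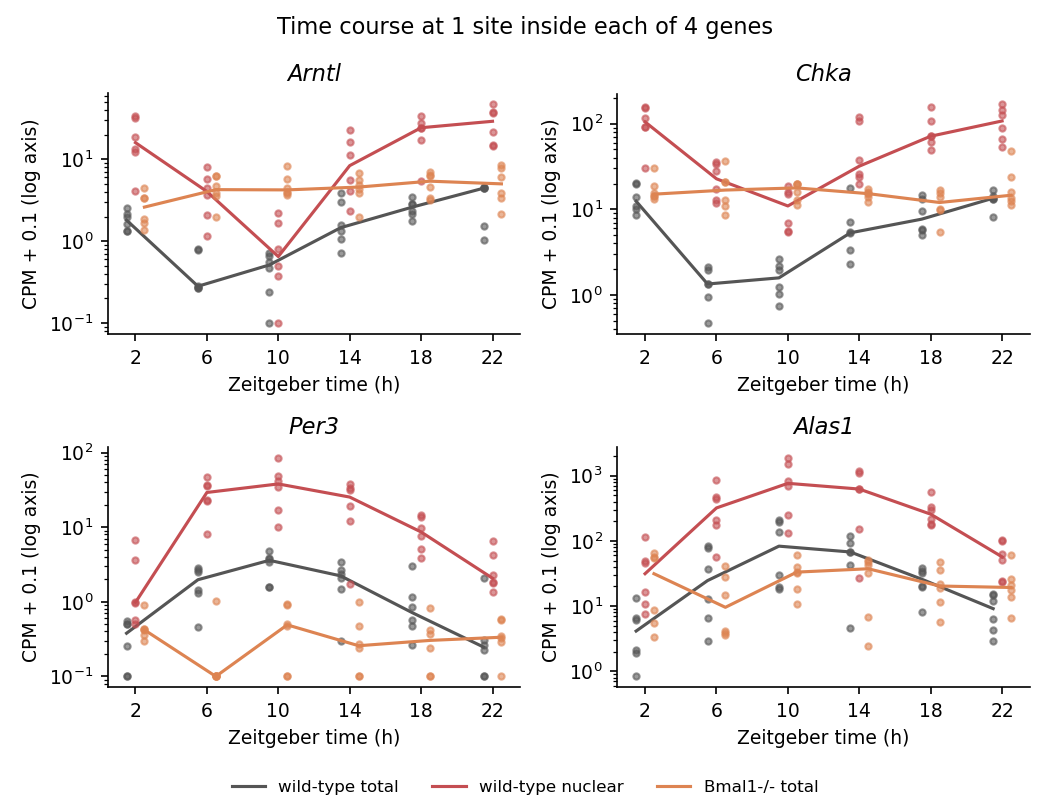
CPM plus 0.1 (log axis) by zeitgeber time at 1 site inside each of Arntl, Chka, Per3 and Alas1, with 1 point per library and lines through the medians of 6 libraries in wild-type nuclear RNA (red), wild-type total RNA (grey) and Bmal1-/- total RNA (orange). Nuclear and total wild-type lines rise and fall together, while the Bmal1-/- lines show no called rhythm.

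Of the 38 rhythmic sites, all of which were tested in wild-type total RNA, 28 were called there too, and all 28 peaks were within 2 h of the nuclear peak (median difference of nuclear minus total -0.099 h). The other 10 were not called in total RNA. Among them, named after their values were seen, a Neat1 site had fitted peaks at ZT18.3 in nuclear and ZT14.5 in total RNA and a Ddhd1 site at ZT17.6 and ZT15.3. In all, 67 of 860 tested sites of the set were rhythmic in total RNA (7.79%, where 7.58% of all sites were called) and 13 of 466 in polysomal RNA (2.79%, against 2.15%). A difference of rhythm between nuclear and total RNA was called at 0 of 919 sites (edgeR, 5 with an unadjusted p under 0.05, where 0.00383% of all sites were called). Wild-type total RNA served in both the rule and this test.

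Within a gene, the site of the set tended to peak before the site that dominates total RNA. In 20 of the 30 genes, the other site with the most wild-type total counts was itself rhythmic there. The nuclear peak of the site of the set was earlier than the total RNA peak of that other site in 18 of the 20, with a median difference of -1.02 h. Both sites were called in total RNA itself in 15 genes, and the site of the set was the earlier one in 12 of these (median -1.07 h). Alas1 was earlier by 2.07 h in the first comparison, Per3 by 1.11 h and Ppard by 1.79 h, while Chka differed by -0.120 h, and Snhg1 (8.94 h) and Fnip2 (0.37 h) were later. This comparison was made after the values were seen and carries no test.

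In Bmal1-/- total RNA, 0 of 881 tested sites of the set were called rhythmic (edgeR, 28 with an unadjusted p under 0.05), and 0% of all 28213 sites tested were called there (864 with an unadjusted p under 0.05). An interaction test of genotype with rhythm in total RNA, added after the values were seen, called 16 of 883 sites (1.81%, where 1.44% of all sites were called). They included both Arntl sites (edgeR, adjusted p = 3.46e-05 and 8.72e-05), 4 of the 5 Alas1 sites (lowest adjusted p = 0.00147), Chka (0.000121), Ppard (0.00113) and Usp2 (0.00261). At the Arntl site chr7:113243662-113243709, Bmal1-/- medians stayed between 2.51 and 5.31 CPM at all 6 times, while wild-type total medians ran from 0.182 CPM at ZT6 to 4.34 CPM at ZT22.

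Levels averaged over time changed with the genotype at 240 of 883 tested sites, a share near that of all sites (27.2% against 26.9%). Of these, 154 were higher in Bmal1-/- (17.4%, where 13.6% of all sites were) and 86 lower (9.74%, where 13.4% were). The median log2 change was 0.05 in the set and -0.01 over all sites. At a rhythmic site the average of log2 levels gives troughs as much weight as peaks. Its change can therefore differ from that of the mean CPM. The wild-type total libraries of this test also entered the rule, which favoured sites that happened to be low in them, and they served in the polysomal comparison below as well.

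The largest rise was at the end of Abhd1, listed by RefSeq as a transcribed pseudogene, with 0 to 2.94 CPM in wild type (median 1.31) and 0.617 to 39.4 CPM in Bmal1-/- (median 19.2). The log2 change was 3.70 (SE 0.28, edgeR adjusted p = 3.58e-17), and Bmal1-/- was higher at 6 of 6 times. A site 92.7% into Lpl, the lipase of triglyceride-rich lipoproteins, had 0 to 7.51 CPM in wild type and 3.49 to 25.3 CPM in Bmal1-/- (log2 change 3.49, SE 0.23, edgeR adjusted p = 1.75e-20). Cyp2c39, a cytochrome P450, rose by 2.35 on the log2 scale (SE 0.24, adjusted p = 2.73e-12), with libraries that overlapped (0.678 to 5.73 and 1.47 to 34.5 CPM). Zmat3, a p53 target, and the noncoding Gm36041 rose by 2.38 and 2.18.

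Of the rhythmic sites named above, those with fitted nuclear peaks near ZT21 rose. Arntl rose by 1.75 and 2.03 at its 2 sites, Chka by 1.57 and Ppard by 1.62 on the log2 scale (edgeR, adjusted p at most 2.73e-10). These are changes of the averaged log2 level, and the difference was not even over the day. At Chka the wild-type and Bmal1-/- means were 1.53 and 16.5 CPM at ZT10, and 13.1 and 20.6 CPM at ZT22. Per3 fell by 1.86 and Usp2 by 1.35, which peaked at ZT10.7 and ZT13.1 in wild-type nuclei. The Alas1 site chr9:106241447-106241572 had a log2 change of -0.09 (SE 0.31, edgeR adjusted p = 0.880), with means of 40.5 CPM in wild type and 26.5 CPM in Bmal1-/-. These means differ by more than that change, since the test averaged log2 levels.

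The largest fall was in Col27a1, which encodes a fibrillar collagen chain, with 0 to 2.73 CPM in wild type and 0 to 0.817 CPM in Bmal1-/-, where the median was 0 (log2 change -3.35, SE 0.33, edgeR adjusted p = 2.21e-13). The other 4 of the 5 named falls were at snoRNAs or in Neat1. Rpl4 fell by 2.23, the Neat1 end by 2.15, the second Snhg1 site by 2.08 and the second Eif4a2 site by 1.96 on the log2 scale. The small RNA sites were not uniform, with 6 higher and 11 lower of 27 tested, and the 2 highest of them, Snord89 and LOC115486001, rose by 0.59 and 0.34 (edgeR, adjusted p = 0.00124 and 0.0459). Malat1 and Neat1 went opposite ways: all 4 Malat1 sites rose by 1.01 to 1.51, and 3 of the 5 Neat1 sites fell by 1.18 to 2.15, with the other two at 0.27 and 0.21 and not called.

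The polysomal mean was below the wild-type total mean at 639 of the 920 sites (69.5%) and at or above it at 281 (30.5%), while it was at or above it at 51.5% of other sites with at least 1 CPM in nuclear RNA. Of 771 sites tested against wild-type total RNA, 663 differed (86.0%, where 69.6% of all sites did). Of these, 479 were lower (62.1%, where 42.5% of all sites were) and 184 higher (23.9%, where 27% were), in a test that compares all 36 libraries of each kind. The filter averaged counts over both fractions, so a site could enter through its total RNA counts alone and then could only be lower. Among sites that averaged at least 3 counts in polysomal RNA itself, 184 were higher and 171 lower. This filter drops sites because they are low in polysomal RNA, so its balance was partly set in advance. With at least 10 counts on average over both fractions, 199 of 396 tested sites were lower and 153 higher. Over all sites 7029 were lower and 6974 higher with that filter. The size of the excess of lower sites thus depended on sites with few polysomal counts. Sites low in both fractions, 149 of the 920, were not tested. The set had a polysomal mean under 0.1 CPM at 152 sites (16.5%), against 1.12% of other sites with at least 1 CPM in nuclear RNA.

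**Figure D5:**
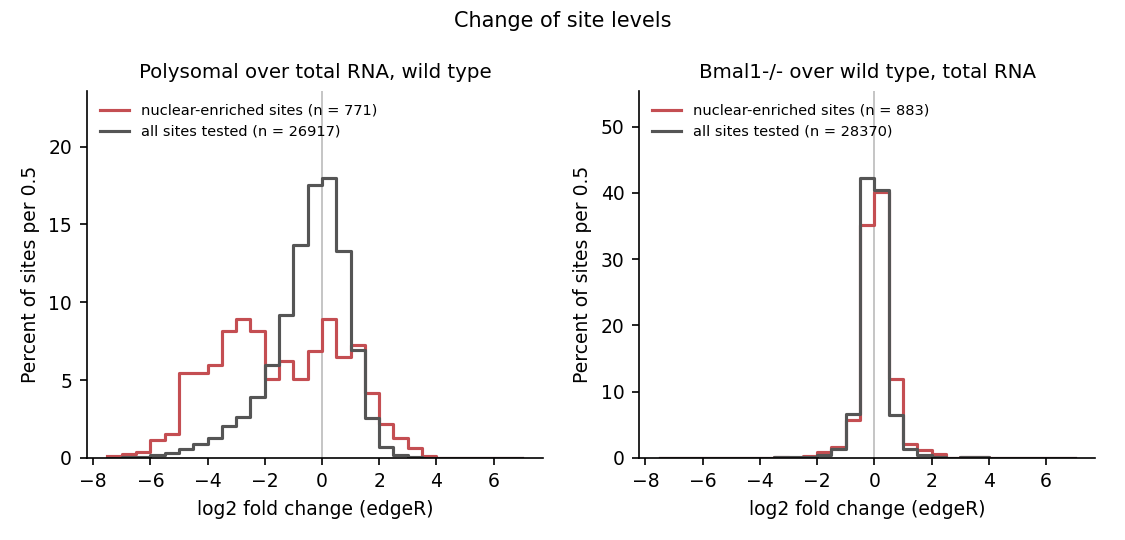
Percent of sites in each step of 0.5 of the log2 fold change (edgeR) for polysomal over total RNA (left) and Bmal1-/- over wild type (right), in the tested sites of the nuclear-enriched set (red) and all sites tested (grey). On the left the red line has a broad shoulder at negative values (median -1.56, against -0.23 over all sites), which includes sites with hardly any polysomal counts, and on the right both lines centre near 0.

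By place, and over all sites tested or not, the polysomal mean was at or above the total mean at 2 of 27 sites at small RNA genes. This was so at 199 of 717 other sites inside genes (27.8%) and at 60 of 90 within 100 bp of gene ends (66.7%). In the test, 24 sites at small RNA genes were lower and 1 higher, and at gene ends 22 were lower and 43 higher. Differences between these classes were not tested.

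The 5 named falls were all inside genes. The Mlxipl site at chr5:135122948-135123049 had 4.81 to 29.1 CPM in total RNA (median 12.3) and 9.57 to 232 CPM in nuclear RNA (median 61.1). It had 15 counts in all polysomal libraries together, 27 of which had 0 (log2 change -7.35, SE 0.29, edgeR adjusted p = 1.39e-33). The second Mlxipl site, 96.9% into the gene, was not called (log2 0.20, SE 0.22, adjusted p = 0.437). A site 40.4% into Lrp1, an endocytic receptor, had 17 counts over 3 of the 36 polysomal libraries and fell by 6.70, and Snx24, a sorting nexin, had 7 counts and fell by 6.68. Ppargc1b, a coactivator of mitochondrial genes, and Hnf4aos, antisense to the liver factor Hnf4a, fell by 6.15 and 6.11.

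Of the listed nuclear noncoding RNAs, 11 of 12 tested sites were lower in polysomal RNA and none higher. The main Neat1 site fell by 5.92 (SE 0.30, edgeR adjusted p = 2.79e-26), and the site in Snhg1 that ends in LOC115489084 had a log2 change of -0.03 (SE 0.32, adjusted p = 0.940). Of the splicing and detained-intron genes, 9 of 11 sites were lower and none higher. Clk1, a kinase of splicing factors, fell by 4.90, Srsf4 by 4.16 and the first Srsf5 site by 3.30. The Luc7l site had a log2 change of -0.23 (SE 0.18, adjusted p = 0.234) and a Ccnl2 site of -0.18 (SE 0.29, adjusted p = 0.594).

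A smaller group of sites was both nuclear-enriched and higher in polysomal than in total RNA. Pfn1 (profilin) rose by 3.32 on the log2 scale (SE 0.30, edgeR adjusted p = 2.05e-15), Timm22 by 3.27, Btg1, an antiproliferative adaptor, by 3.13 and Tmem63a by 3.07. Btg1 had 0.739 to 11.4 CPM in total, 7.48 to 201 CPM in polysomal and 5.69 to 74.7 CPM in nuclear RNA. At 15 sites the polysomal mean was at or above the nuclear mean, among them Pfn1, Timm22, Btg1 and, named after their values were seen, 2 sites of Rpn1 and 1 each of Ist1 and Ndfip1.
Of the liver genes, Apob and Alb rose by 1.06 and 0.74 and Fga fell by 0.66, while Apoa1 was not called (log2 0.18, SE 0.15, adjusted p = 0.290).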

How the data were processed

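Counts per polyadenylation site in 144 libraries were deposited by the authors as raw counts, with a filtered list of site positions. Per the submitters' processing notes, STAR 2.4.2a, HOMER and edgeR were used with the builds mm10 and GRCm38.p5, and no setting is given in the sources used here. Positions are those of the deposited list, counted from 1. The deposited counts were divided by each library's total in the site table of 86780 sites to give CPM. Gene bounds and sequences are from RefSeq. Strand is listed for 27025 of 45129 genes, and for 1487 more it was read from the strand with at least 10 times the counts at the gene's ends (99.8% agreement on 5383 genes with a listed strand).

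Tests used edgeR 4.0.16 in R 4.3.3 (TMM factors, robust quasi-likelihood fit, Benjamini-Hochberg over all sites that averaged 3 counts or more per library of the fit). They were also run on simulated counts, drawn with the same dispersion at every site and no replicate effect. That run does not check the tests at sites with a wider spread. Rhythm was a cosine and a sine of 24 h. The level tests compared 36 with 36 libraries with time in the model. Tables and figures used Python 3.11.15 with pandas 2.3.3.

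The set and the gene lists were chosen with earlier results of these data known. Named sites were, per place, the 4 highest in nuclear RNA, the 10 largest ratios, the 10 smallest adjusted p for nuclear rhythm, the 5 largest rises and falls per level test in the same direction at 6 of 6 times, and all sites of the listed genes. Alternatives were other scalings, filters, replicates 1 to 3 or 4 to 6 alone, DESeq2 1.42.0 and a replicate block. Some sites that this rule selects are not reported here.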

Additional observations from a re-analysis of the deposited data

Results flagged for a closer look

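The share of a library's site counts that fell on the set had a library far from the other 5 in 4 groups of 6 libraries. In all, 60 such groups were looked at (the share by series and time, and nuclear CPM by time at 6 rhythmic sites), and chance alone marks about 1 in 20. In nuclear RNA these were the highest libraries at ZT2 (6.40%) and at ZT18 (5.95%), in polysomal RNA the highest at ZT6 (0.690%) and in wild-type total RNA the lowest at ZT10 (0.380%). Single sites plotted by time were also read by library at ZT14. There replicate 4 of wild-type total RNA was the lowest at Alas1 (4.55 CPM, next 43.1) and Per3 (0.198 CPM). It was the highest at Chka (17.8 CPM) and Arntl (3.75 CPM). Nuclear replicate 4 was the lowest at Alas1 (26.7 CPM, next 154) and Per3 (1.65 CPM). At Chka (106 CPM) and Arntl (15.9 CPM) it lay below nuclear replicate 1 (120 and 22.7 CPM). Whether replicate 4 matches its labelled time was not tested.

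In total RNA the 24 h rhythm depended on genotype at 16 sites, by the interaction term of the edgeR fit. The adjusted p was 3.46e-05 and 8.72e-05 at the Arntl sites, 0.000121 at Chka, 0.000982 at the noncoding 5033403H07Rik, 0.00113 at Ppard and 0.00261 at Usp2. At Alas1 it was 0.00147, 0.0181, 0.0311 and 0.0369. It was 0.0181 at Ppargc1b, 0.0295 at Slc8b1, 0.0365 at Luc7l2, 0.0423 at Gm36041, 0.0458 at Slc7a2 and 0.0490 at Coq8a.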

How the results depend on the processing

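The number of sites in the set depended on scaling: it was 1381 with CPM divided by TMM factors (all 920 among them) and 473 with 1 CPM added to the total RNA mean, and it ran from 869 to 1009 when each replicate number was left out. With fewer libraries fewer sites were called: in replicates 1 to 3 and in replicates 4 to 6, 18 and 10 rhythmic sites in nuclear RNA, 7 and 1 differences of rhythm between genotypes. Replicates 4 to 6 gave 15 rhythmic sites in total RNA, and replicates 1 to 3 gave 0 in polysomal RNA and 56 lower in Bmal1-/-. Polysomal RNA had 36 rhythmic sites with no filter, and sites lower there numbered 199 when tested sites had to average 10 counts (153 higher) and 171 with at least 3 counts in polysomal RNA itself (184 higher), since the filters remove sites that are near 0 there. DESeq2 called 53 rhythmic sites in nuclear RNA and 166 higher and 96 lower in Bmal1-/-. A replicate block gave 57 rhythmic sites in nuclear and 22 in polysomal RNA and changed no other count by over 1.5 times. Same-numbered nuclear and total libraries deviated together in 31 of 36 pairs (r over 0.1, mean 0.218), and 27 of 36 nuclear libraries matched their own number best. The labels do not state whether these share animals. Since not every pair deviated together, the number was not taken as a pairing. With number and time together as a block, 0 sites differed in rhythm between nuclear and total RNA, as without it. Polysomal and total libraries deviated together in 1 of 36 pairs. Bmal1-/- and wild-type libraries, which cannot share animals, did so in 19 of 36, and 13 matched their own number best. Shared animals thus cannot be told apart from another link by replicate number. Of the values of named sites under alternatives, 196 kept direction and call, none reversed and 9 lost the call, all of them nuclear rhythms in replicates 1 to 3 or 4 to 6 alone. The shallowest nuclear library held 1404964 counts, so sites near 1 CPM rest on very few counts there.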
